A study of Mus musculus with 6 samples.

Results

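Gip, Sst and Gcg are the genes of 3 peptide hormones made by enteroendocrine cells, the rare secretory cells of the gut lining. They were taken by name from the authors' deposited table of differing genes, so 3 of 1386 listed genes and loci are described here, each with its read count and its FPKM (fragments scaled to gene length and to the depth of the library) in 6 libraries. RNA came from intestinal epithelium of wild-type mice on regular chow. The Akk group, with 3 libraries, was gavaged every day with 400000000 Akkermansia muciniphila, a bacterium that lives on gut mucus, for 7 weeks from the age of 8 weeks. The PBS group, also with 3 libraries, received the saline carrier over the same 7 weeks. Strain, sex, the number of animals behind a library and how the epithelium was separated are not stated by the labels, so p-values cover the spread between these samples, which may be partly technical. The series title places the study in the jejunum, whereas the sample labels say only intestine.

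Enteroendocrine cells sense nutrients in the lumen and release hormones from granules at their base. Gip encodes glucose-dependent insulinotropic polypeptide, the incretin of K cells, which are most frequent in the duodenum and jejunum. Gcg encodes proglucagon, which L cells, most frequent in the ileum and colon, process into the incretin GLP-1 and into GLP-2, a growth factor of the intestinal lining. Sst encodes somatostatin, the peptide of D cells, which restrains the release of other gut hormones.

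All 3 genes were annotated as protein-coding in GENCODE M21 (GRCm38, the assembly that mm10 names), and no other gene model overlapped them. Gip (ENSMUSG00000014351) lies on chromosome 11 from 96024545 to 96030831 on the plus strand. Sst (ENSMUSG00000004366) lies on chromosome 16 from 23889573 to 23890958 on the minus strand. Gcg (ENSMUSG00000000394) lies on chromosome 2 from 62474530 to 62483650 on the minus strand. Their promoters are shown because Gip and Sst shared one direction in these libraries and Gcg had the other. The sequences are RefSeq's, on GRCm38.p6, and all 3 genes were found in that table. For Gip and Gcg the 250 bases before the RefSeq gene start are given, at chr11:96024295-96024544 (plus strand) and chr2:62483654-62483903 (minus strand). For Sst only 30 bases are given, at chr16:23890874-23890903 (minus strand), because GENCODE starts this gene 114 bases further upstream than RefSeq, so that they fall in its GENCODE exon. Capitals mark AGATAA (a core of GATA factor sites) in Gip, TGACGTCA (the cAMP response element) in Sst and TATAAA (the TATA box) in Gcg, on either strand; no marked stretches overlap.
Gip: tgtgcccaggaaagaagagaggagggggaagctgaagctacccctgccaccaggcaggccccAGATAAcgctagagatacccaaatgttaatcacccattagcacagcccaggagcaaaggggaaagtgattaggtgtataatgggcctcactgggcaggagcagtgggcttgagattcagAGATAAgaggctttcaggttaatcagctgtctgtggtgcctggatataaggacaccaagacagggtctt
Sst: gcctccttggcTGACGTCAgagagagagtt
Gcg: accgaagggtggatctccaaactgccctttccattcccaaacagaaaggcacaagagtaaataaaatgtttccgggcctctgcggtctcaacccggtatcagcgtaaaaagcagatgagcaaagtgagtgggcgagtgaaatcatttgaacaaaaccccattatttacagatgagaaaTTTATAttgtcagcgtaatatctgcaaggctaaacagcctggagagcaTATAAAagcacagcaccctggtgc

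Within the 250 bases before the RefSeq start, AGATAA occurred 2 times in Gip and in neither of the other two genes, and 9.99% of 32851 promoters of that length held it. TGACGTCA occurred 1 time in Sst, 48 bases before the start, and 1.55% of promoters held it. TATAAA occurred 2 times in Gcg, once on each strand, and 12.4% of promoters held it. Gip and Sst thus had none of these motifs in common, and neither shared one with Gcg. These are matches of letters in a window, and no binding was measured.

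The whole table sets the frame for these genes. Of its entries, 346 are marked up and 1040 down in Akk (25.0% and 75.0%), and no p-value in the authors' deposited table exceeds 0.0498. The genes were thus selected on these same libraries, and every comparison of Akk with PBS below is a description of selected genes. Implied depth was 23463923 to 29253849 fragments per library. PBS replicate 2 differed most from the rest, with the top value for 1022 of the 1040 down-marked genes. The summed FPKM of the 10 listed Paneth cell markers, of 12 in the list, was 8745 in that library against at most 241 in the other PBS libraries and 168 to 196 in Akk. The values of the hormones are therefore given with and without it.

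Gip and Sst transcripts were higher, and Gcg transcripts lower, in every Akk library than in every PBS library. Mean FPKM was 1.65-fold higher in Akk for Gip, 1.66-fold higher for Sst and 2.78-fold lower for Gcg. Without PBS replicate 2 these ratios were 1.41, 1.49 and 2.03. In RNA of a mixed epithelium, fewer cells of a type and less RNA per cell cannot be told apart.

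**Figure D1:**
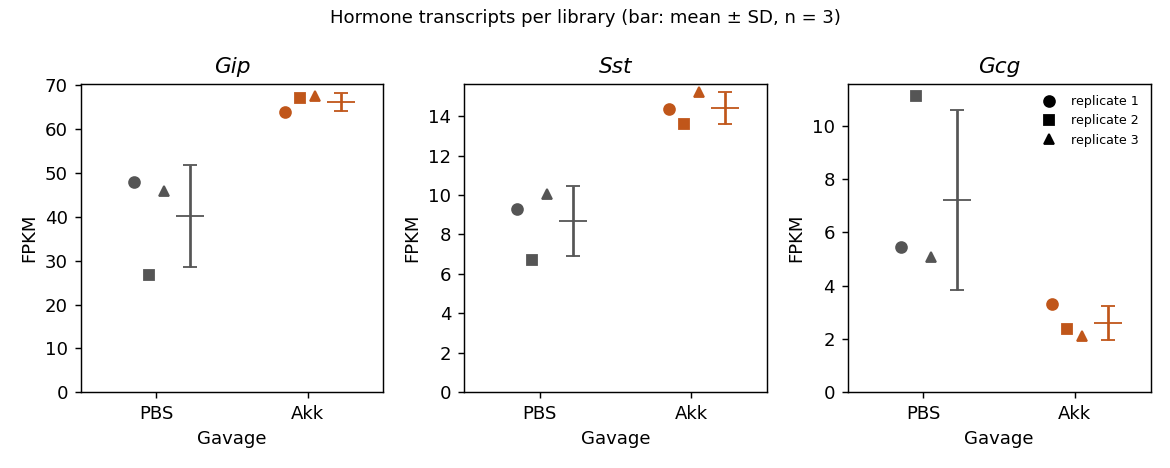
FPKM of Gip, Sst and Gcg (vertical axes, linear, each from 0) in the 3 PBS and 3 Akk libraries; marker shapes are replicate numbers, and bars are the mean ± SD. The Akk libraries lie above all PBS libraries for Gip and Sst and below them for Gcg, and PBS replicate 2 is the PBS library farthest from Akk in each panel.

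Gip was the most abundant of the 3. Its FPKM was 63.8, 67.2 and 67.7 in Akk replicates 1 to 3, from 1748, 1726 and 1631 reads. In PBS replicates 1 to 3 it was 47.9, 26.7 and 45.9, from 1164, 588 and 1175 reads. The groups did not overlap: the lowest Akk library was 15.9 FPKM above the highest PBS library, and PBS replicate 2 was the lowest of all. Values in Akk exceeded every PBS value for 130 of the listed genes (9.38%), where only 346 are marked up in Akk. That share is of a table that was itself selected for differing. Group means were 66.2 ± 2.10 in Akk and 40.2 ± 11.7 in PBS (SD, n = 3), or 46.9 ± 1.42 without PBS replicate 2 (n = 2). The spread within Akk was 3.17% of the mean, where counting error alone would give 2.43%, and it was the 29th smallest of the 1386 listed genes, whose median was 21.8%. Spread in PBS was 29.1%, and 3.03% without replicate 2.

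Sst, the brake on its neighbours' secretion, followed the same pattern at a lower level. Its FPKM was 14.4, 13.6 and 15.2 in Akk replicates 1 to 3, from 435, 386 and 406 reads. In PBS replicates 1 to 3 it was 9.30, 6.70 and 10.04, from 250, 163 and 284 reads. Again the groups did not overlap, with a gap of 3.55 FPKM, and PBS replicate 2 was the lowest library. Means were 14.4 ± 0.816 in Akk and 8.68 ± 1.76 in PBS (SD, n = 3), or 9.67 ± 0.524 without PBS replicate 2 (n = 2). The Akk spread of 5.67% was close to the 4.95% that counting error gives.

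Gcg had the opposite direction and the widest relative spread within Akk. Its FPKM was 3.31, 2.39 and 2.11 in Akk replicates 1 to 3, from 148, 103 and 85 reads. In PBS replicates 1 to 3 it was 5.47, 11.1 and 5.07, from 217, 376 and 217 reads. The highest Akk library was 1.76 FPKM below the lowest PBS library, and here PBS replicate 2 was the highest of all. All 3 Akk libraries lay below all 3 PBS libraries for 901 of the listed genes (65.0%), where 1040 are marked down. This separation is thus common in the table. Means were 2.60 ± 0.630 in Akk and 7.22 ± 3.39 in PBS (SD, n = 3), or 5.27 ± 0.281 without PBS replicate 2 (n = 2). Counting error would give 9.70% in Akk, where the spread was 24.2%. The length that count and FPKM together imply for Gcg was 1440 bases in PBS replicate 2 against a median of 1546 over the libraries, so the FPKM of that library is somewhat higher than its count alone would give.

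The order of levels per length was Gip above Sst above Gcg in all 3 Akk libraries and in PBS replicates 1 and 3. In PBS replicate 2, Gcg (11.1 FPKM) stood above Sst (6.70 FPKM). These levels rest on the lengths that count and FPKM imply, with medians of 936 bases for Gip, 1035 for Sst and 1546 for Gcg. GENCODE exons span 687, 721 and 1494 bases, so comparisons between genes, and shares of their sum, depend on the lengths used. The PBS means of Sst and Gcg did not differ beyond their spread with all 3 libraries. The summed FPKM of the 3 hormones was 81.5, 83.2 and 85.0 in Akk replicates 1 to 3 against 62.7, 44.6 and 61.0 in PBS. Of that sum, Gcg made up 4.06%, 2.87% and 2.48% in Akk and 8.73%, 25.0% and 8.32% in PBS, while Sst made up 16.3% to 17.9% in Akk and 14.8% to 16.5% in PBS. The sum, mostly Gip, was thus higher in each Akk library, and its proglucagon share smaller. Since each gene already separated the groups, the smaller share was fixed by the single genes and is no further result.

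In the test across all listed genes, none of the 3 differed past the threshold. The quasi-likelihood test of edgeR with Benjamini-Hochberg adjustment gave a log2 fold change (Akk over PBS) of 0.72 (SE 0.49, adjusted p = 0.208) for Gip. For Sst it gave 0.73 (SE 0.61, adjusted p = 0.296), and for Gcg -1.41 (SE 0.66, adjusted p = 0.0925). In that fit 0 of the 1386 genes passed (0.0%), 791 had an unadjusted p under 0.05, and DESeq2 called 786 (56.7%). DESeq2 gave 262 genes no adjusted p, so its adjustment ran over fewer genes, while its shares are of all 1386. By DESeq2, Gcg passed at a log2 fold change of -1.42 (adjusted p = 0.0443), where 51.4% of listed genes were called lower. Gip and Sst did not pass (adjusted p = 0.155 and 0.261), where 5.34% were called higher. The authors' deposited table gives p = 0.0209 and a log2 fold change of 0.86 for Gip, p = 0.00868 and 0.91 for Sst, and p = 0.00179 and -0.89 for Gcg. The method behind those values and any adjustment of p are not stated, and their sizes are not on the scale of the edgeR fit. For Olfm4, a listed stem cell marker, the deposited value is -1.67 and the edgeR value -5.09.

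Without PBS replicate 2 the edgeR test called 270 genes (19.5% of those tested), 24 higher (1.73%) and 246 lower (17.7%). Gcg was among them, with a log2 fold change of -1.01 (SE 0.26, adjusted p = 0.0442). Gip and Sst missed the threshold, at 0.50 (SE 0.17, adjusted p = 0.0670) and 0.57 (SE 0.19, adjusted p = 0.0629). The biological coefficient of variation of the table went from 0.71 to 0.29 when this library was left out. The median log2 fold change over genes listed in the same direction was 0.74 for the higher and -2.19 for the lower ones, and 0.70 and -0.78 without PBS replicate 2. Gip and Sst thus lay close to the median of the higher genes in the full set of libraries, while Gcg lay nearer to 0 than the median of the lower genes. Without PBS replicate 2 this turned for Gcg, which lay farther from 0 than that median, and Gip and Sst lay below the median of the higher genes.

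The size of each change depended on the scaling. With TMM and RLE factors derived from this table, the median log2 fold change over its genes went from -1.85 to -0.21 and -0.15, although these factors assume that most genes do not differ. Under them Gip had 1.58 and 1.60, Sst 1.64 and 1.66, and Gcg -0.13 and -0.09. Relative to the median of all listed genes, Gcg was 0.44 higher with the recovered depth, 0.08 higher with TMM and 0.06 higher with RLE factors, and 0.35 lower without PBS replicate 2. Relative to the same median, Gip was 2.57 higher with the recovered depth and 1.79 higher with TMM factors, and Sst 2.58 and 1.86 higher; without PBS replicate 2 these values were 1.16 for Gip and 1.23 for Sst. All 3 genes kept the sign of their fold change under both factors, while for Gcg it shrank to within its SE of 0 (0.41 and 0.43).

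**Figure D2:**
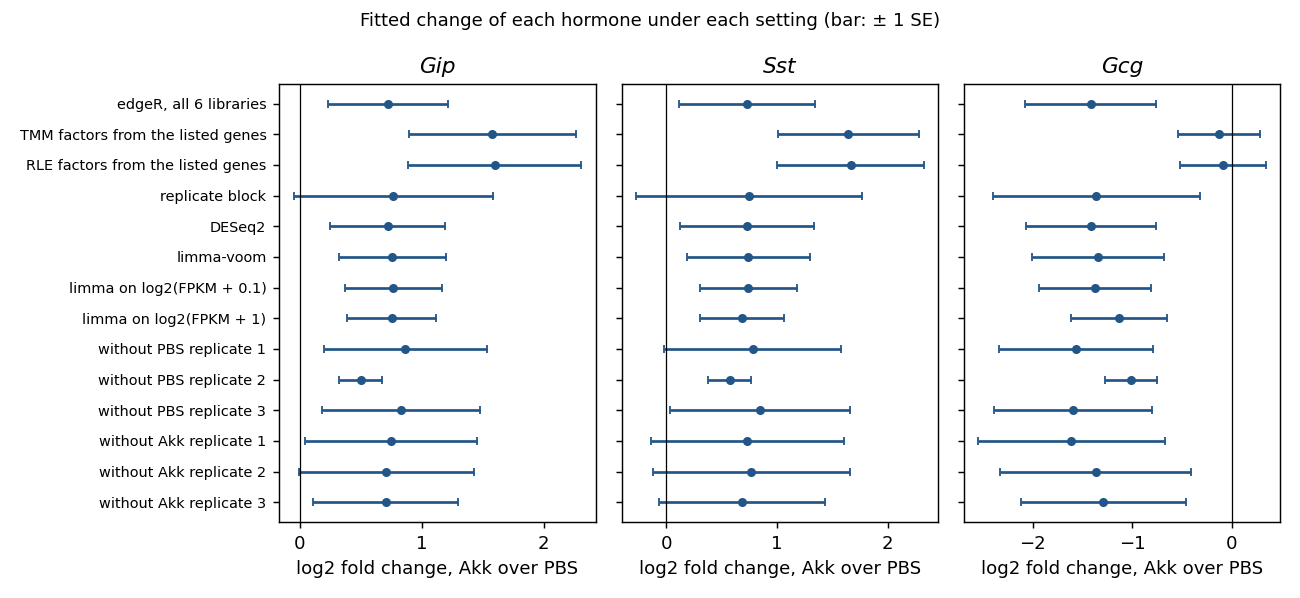
Log2 fold change of Akk over PBS (horizontal axes) for Gip, Sst and Gcg under each tool, scaling and left-out library (rows); points are the estimates and bars ± 1 SE. Gip and Sst lie above 0 and Gcg below 0 in every row, and Gcg comes nearest to 0 with TMM and RLE factors.

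Ratios between the hormones within a library do not depend on the depth used, though their sizes depend on the gene lengths used. The FPKM ratio of Gip over Sst was 4.44, 4.95 and 4.45 in Akk replicates 1 to 3 and 5.15, 3.99 and 4.57 in PBS. The groups overlapped, and the mean log2 ratio was 2.20 ± 0.09 in Akk and 2.18 ± 0.18 in PBS (SD, n = 3), a difference of 0.02 (two-sided exact permutation p = 1.0). Gip and Sst therefore kept nearly one proportion over libraries in which each varied more than 2-fold, although a p above the threshold does not show that the ratios are equal. The ratio of Gip over Gcg was 19.3, 28.1 and 32.1 in Akk and 8.76, 2.40 and 9.05 in PBS, with no overlap. Its mean log2 value was 4.70 ± 0.38 in Akk and 2.52 ± 1.09 in PBS (SD, n = 3), a difference of 2.17, or 4.51-fold. The ratio of Sst over Gcg was 4.34, 5.68 and 7.23 in Akk and 1.70, 0.602 and 1.98 in PBS, a difference of 2.15 in mean log2 ratio. For each of the latter 2 ratios the exact permutation p was 0.10, the smallest that 3 libraries against 3 allow, and 0.15 after Benjamini-Hochberg adjustment over 3 ratios. Without PBS replicate 2 the differences were 1.54 for Gip over Gcg and 1.62 for Sst over Gcg, or 2.91-fold and 3.07-fold, again with no overlap (exact permutation p = 0.20, the smallest that 3 against 2 allow). Each Akk library lay above every PBS library for Gip and Sst and below every one for Gcg. The lack of overlap and these p-values, with or without PBS replicate 2, were therefore fixed by the single genes and are no further result.

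**Figure D3:**
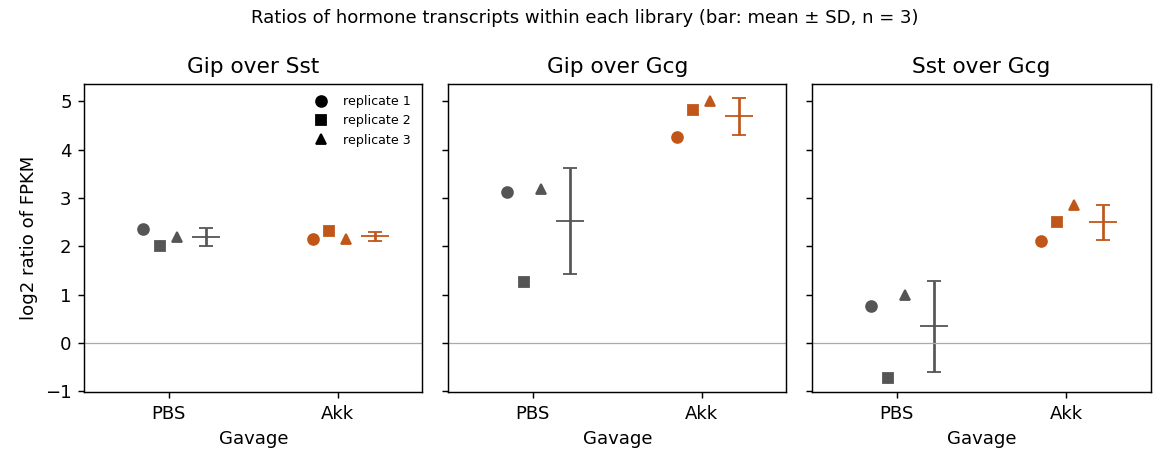
Log2 ratio of FPKM (shared vertical axis) of Gip over Sst, Gip over Gcg and Sst over Gcg within each PBS and Akk library; marker shapes are replicate numbers and bars the mean ± SD. The Gip over Sst ratio overlaps between the groups, and in the other two panels each Akk library exceeds each PBS library.

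No other gene of the enteroendocrine lists was in the table. The lists held 74 genes in 6 groups, of which Gip, Sst and Gcg were the 3 listed and 71 were not. Among the absent hormones were Cck (cholecystokinin), Sct (secretin), Nts (neurotensin), Pyy (peptide YY, which L cells release beside GLP-1) and Ghrl (ghrelin), 5 of 12 other hormones in the list. None of 6 serotonin cell genes (such as Tph1, the serotonin-making hydroxylase) was listed, and none of 16 transcription factors of the lineage (such as Neurog3). The same held for 14 genes of granules and prohormone processing (such as Chga and Pcsk1, the convertase that releases GLP-1), 12 nutrient sensors and 11 hormone receptors and degrading enzymes (such as Gipr and Dpp4). A gene that is not listed either missed the authors' limits, on p or on fold change, or was not measured, and its level is not known here.

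Of the genes that mark a region of the gut, none of the 5 listed passed the edgeR test with all libraries, and the other 12 of 17 have no values here. Of 9 distal genes, 2 were listed, both marked lower in Akk as 75.0% of the table is. Car4, a carbonic anhydrase of the distal gut, stood at 88.4, 119 and 171 FPKM in Akk replicates 1 to 3 and 265, 330 and 302 in PBS. Its groups did not overlap, with Akk the lower, as for 65.0% of the listed genes. With all libraries its log2 fold change was -1.23 (edgeR adjusted p = 0.0861), and without PBS replicate 2 it passed at -1.16 (adjusted p = 0.0435), where 17.7% of genes were called lower. Aqp4, a water channel, averaged 0.116 ± 0.0516 FPKM over the Akk libraries and 3.28 ± 5.06 over the PBS libraries (SD, n = 3), with 9.11 in PBS replicate 2. The summed FPKM of both distal genes, nearly all of it from Car4, was 88.6 to 172 in Akk and 266 to 339 in PBS.

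Of 8 proximal genes, 3 were listed, all marked higher in Akk, as 25.0% of the table is, and none separated the groups. S100g, the calcium-binding calbindin of the duodenum, measured 5.58, 12.9 and 97.7 FPKM in Akk replicates 1 to 3 and 9.56, 11.1 and 3.62 in PBS. Slc40a1, the iron exporter ferroportin, had 1.35, 4.79 and 17.9 in Akk and 3.26, 3.02 and 1.56 in PBS, and Cybrd1, the duodenal ferric reductase, was highest in the same library. Akk replicate 3 thus held the high proximal values, whereas Gip was nearly level over the 3 Akk libraries and as high in Akk replicate 2 as in replicate 3. Gcg was lowest in Akk replicate 3, where Car4 was the highest of the Akk libraries. Whether libraries differed in the stretch of intestine they came from was not tested.

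Markers of crypt cells were highest in PBS replicate 2, the library with the lowest Gip and Sst and the highest Gcg. This held for all 10 listed Paneth cell markers, all 4 listed stem cell markers of 8 and all 11 listed proliferation genes of 12, as it did for 1022 of the 1040 down-marked genes in general. The summed FPKM of the proliferation genes was 350 in that library, at most 36.9 in the other PBS libraries and 14.96 to 23.9 in Akk. The FPKM of PBS replicate 2 over the mean of the other PBS libraries was 0.570 for Gip, 0.693 for Sst and 2.11 for Gcg, where the median was 0.889 over genes listed as higher and 5.77 over genes listed as lower. Muc13 and Zg16 were the 2 listed of 8 genes in the goblet cell list. Their summed FPKM was 2094 to 2996 in Akk and 1246 to 2062 in PBS, although each gene overlapped between the groups. Muc13 was 826 in Akk replicate 3 and 857 in PBS replicate 3, and Zg16 was 1198 in Akk replicate 2 and 1205 in PBS replicate 3. No marker of pancreatic islets (0 of 5), stomach (0 of 7), enteric neurons (0 of 9), immune cells (0 of 8), stromal cells (0 of 8) or tuft cells (0 of 6) was listed. Clps, pancreatic colipase, was the 1 listed exocrine marker of 8, at 66.1 FPKM in PBS replicate 2 and at most 2.45 elsewhere. None of the listed markers was at 0 in any library, and the part of other cell types in the hormone values was not tested.

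**Figure D4:**
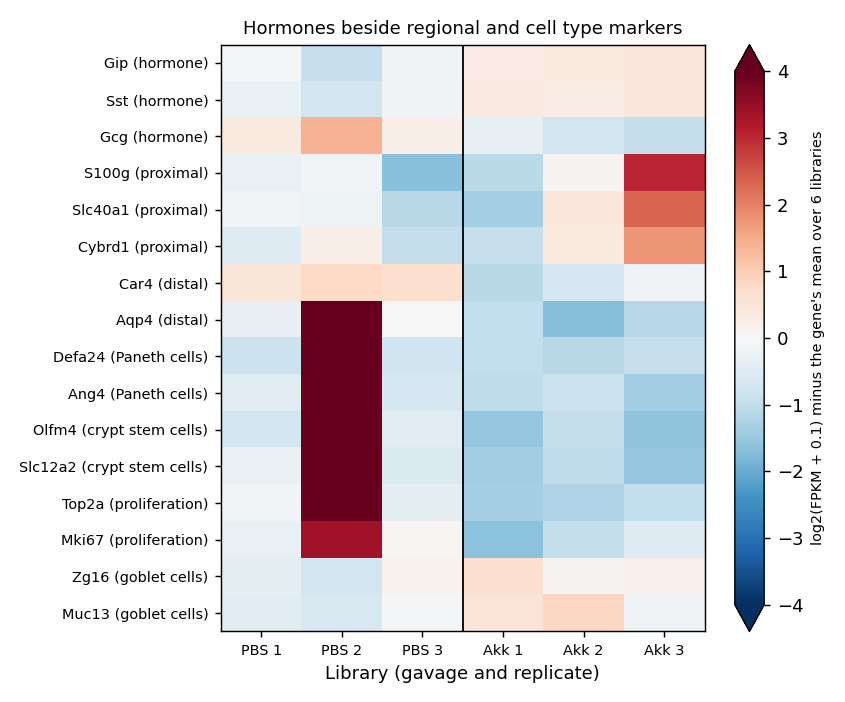
Log2(FPKM + 0.1) minus the gene's mean over the 6 libraries (colour; values past 4 take the end colour) for the hormones and listed markers of region and cell type (rows) in each library (columns, PBS left of the line). Gip and Sst are blue in PBS replicate 2, where Gcg and the crypt markers are red, and the proximal genes are red in Akk replicate 3.

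The genes whose pattern was most like each hormone were ranked by Pearson r of log2(FPKM + 0.1) over the 6 libraries, among 1207 other listed genes with a mean FPKM of at least 1. Since all were selected for differing between the same groups, high values are common: 43 genes had r above 0.9 with Gip, 43 with Sst and 371 with Gcg. For Gip the first 3 were unnamed loci of the authors' assembly, and the first named gene was Plod1, a collagen lysyl hydroxylase, with r = 0.98. Sst was the 5th for Gip and Gip the 4th for Sst, at r = 0.97, and r was 0.96 over the 5 libraries other than PBS replicate 2. Ahead of Gip for Sst were Skil, a SMAD-binding repressor (r = 0.99), Fignl2 (r = 0.98) and 9430038I01Rik (r = 0.98). For Gcg they were Ppil3, a cyclophilin-type isomerase, Chd1l, a chromatin remodeller, Oat, the ornithine aminotransferase, and Hscb, an iron-sulfur co-chaperone, each at r = 0.99. The FPKM of Oat was 57.5 ± 12.6 over the Akk libraries and 218 ± 153 over the PBS libraries (SD, n = 3), of which PBS replicate 2 had 395. The r of Gcg was -0.97 with both Gip and Sst, and -0.95 and -0.93 without PBS replicate 2. Strongly negative values were also common. From highest to lowest r, Gcg ranked 968 of 1207 genes for Gip and 1171 for Sst, so other genes had a more negative r with each. For Gcg, Gip and Sst ranked 1203 and 1202.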

How the data were processed

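RNA was extracted with Trizol and Illumina mRNA libraries were made, per the labels' protocols; the submitters' processing notes name mm10. For the aligner, counter, strand setting and statistical method, nothing is stated in these sources. Per the file headers, the authors deposited whole-number read counts and FPKM for each library, beside p-values and log2 fold changes per gene; p-value adjustment is not stated. Left out were 2 lines of annotation text. Library depth was recovered from count over FPKM in 560 genes with at least 200 reads in each library, and scaled by GENCODE exon lengths of 548. Counts were fitted over all 1386 listed genes with edgeR 4.0.16 (R 4.3.3; filterByExpr, quasi-likelihood F test, recovered depth as library size, no replicate term), with Benjamini-Hochberg adjustment at 0.05; standard errors are those implied by the F statistic. The fit was tested on simulated counts with less spread than the 6 libraries and no deviating library, so that test does not cover data like these. Ratios were compared with two-sided exact permutation tests (scipy 1.17.1). Alternatives were TMM and RLE factors, other count filters, the replicate block, DESeq2 1.42.0, limma 3.58.1 (voom, or log2 FPKM with pseudocounts of 0.1 and 1), and each library left out.

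The members and lists were chosen with earlier results of these data known, and the Sst over Gcg ratio was added after values were seen. Named were the 3 hormones, listed genes of the enteroendocrine and regional lists, for each hormone up to 4 genes of highest r, and up to 2 listed genes of highest mean FPKM for other cell types; most of the latter are given only as sums or in the plot of markers, which shows some chosen after their values were seen. Clps is the single listed exocrine marker. No replicate pair differed by as little as sampling noise. A few genes of the lists are not reported here.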

Additional observations from a re-analysis of the deposited data

How the results depend on the processing

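Gip and Sst kept their direction, with an adjusted p above 0.05, under all 15 alternatives, with log2 fold changes of 0.50 to 1.60 (adjusted p 0.0670 to 0.407) and 0.57 to 1.66 (adjusted p 0.0629 to 0.513). Gcg kept its direction under all 15, at -1.61 to -0.09 (adjusted p 0.0442 to 0.924), and passed the threshold with DESeq2 (-1.42) and, at -1.01, when PBS replicate 2 was left out; the cause was not tested. With 1 library left out at a time, the values were 0.50 to 0.87 for Gip, 0.57 to 0.85 for Sst and -1.61 to -1.01 for Gcg. The count of listed genes past the threshold was 0 by edgeR, 6 with the replicate block, 786 with DESeq2, 2 with limma-voom, 1 with limma on log2(FPKM + 0.1), and 0 to 734 when each library was left out (734, 270 and 732 without PBS replicates 1, 2 and 3). Neither count filter removed a gene, so these say nothing about stability. The difference in Gip over Gcg stayed between 1.54 and 2.499 when libraries were left out. That in Gip over Sst, near 0, turned to -0.0748 without PBS replicate 2 and -0.0326 without Akk replicate 2, with a range of -0.0748 to 0.109. Same-numbered libraries deviated from their group means with correlations of 0.24, -0.08 and -0.30, and not every library correlated best with its own number. The deviations in PBS were mostly those of replicate 2, so this check cannot exclude that the numbers pair the samples. With the replicate block the log2 fold changes were 0.77, 0.75 and -1.36 for Gip, Sst and Gcg. Depth limits Gcg most, at 85 to 148 reads in Akk; counting error there is 8.22% to 10.8% of a value and covers counting only.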
